A study of Homo sapiens with 22 samples.

Results

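The dual-specificity MAP kinase phosphatases (DUSPs) described here are DUSP1, DUSP3, DUSP4, DUSP5, DUSP6, DUSP7, DUSP10, DUSP14 and DUSP16, chosen by name as rows of the deposited expression table. Of the 9 named genes, 8 were found among the 17165 genes of the table, and all 8 were among the 15485 genes tested. DUSP14 could not be matched to a row and was not analysed here. The 8 were read as 4 ERK-linked members (DUSP4, DUSP5, DUSP6 and DUSP7), 3 stress-linked members (DUSP1, DUSP10 and DUSP16) and the atypical DUSP3.

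The data are RNA-seq of polyadenylated RNA, with 22 libraries that form 11 groups of 2. All of them came from PC9, an established human lung adenocarcinoma cell line whose growth depends on an activated mutant form of EGFR, the epidermal growth factor receptor. Gefitinib is a reversible inhibitor of the EGFR kinase, and WZ4002 is an irreversible inhibitor designed against drug-resistant mutant EGFR. The derivatives PC9-GR2 and PC9-GR3 (called GR2 and GR3) received WZ4002 or vehicle, gefitinib-tolerant cells received gefitinib or vehicle, WZ4002-tolerant cells received WZ4002 or vehicle, and parental cells received WZ4002, gefitinib or vehicle. Every treatment lasted 24 h, and the labels give 1 mM for both inhibitors, a unit that is in doubt because cells are usually given such inhibitors in the micromolar range. The labels state neither how the resistant and tolerant populations were derived nor whether any of them is a single clone. They also do not say whether the 2 libraries of a group were separate cultures, so each p-value rests on a spread between libraries that may be technical. In the fit reported, that spread is 1 estimate per gene, pooled over all 11 groups. It can therefore be wider or narrower than the spread of the groups being compared. In bulk RNA of this kind, fewer cells expressing a gene and less RNA per cell cannot be told apart.

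MAP kinase phosphatases switch off ERK, JNK and p38 by removing the phosphates from the threonine and the tyrosine of the activation loop. Several of them are induced by the very kinase they inactivate, so that they act as negative feedback and their transcripts serve as a readout of pathway output. In lung tumour cells driven by mutant EGFR, the RAS, RAF, MEK and ERK cascade is one of the main routes by which the receptor signals. DUSP6 and DUSP7 are cytoplasmic and select ERK, DUSP5 is nuclear and specific for ERK, and DUSP4 is nuclear and inducible and can also act on JNK and p38. DUSP1 is a nuclear immediate early gene induced both by growth factors and by stress, and DUSP10 and DUSP16 prefer JNK and p38. DUSP3, also known as VHR, is a small phosphatase that lacks the domain with which the other members analysed here bind their kinase.

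Promoters are shown for 3 members. Under drug, DUSP6 was lower and DUSP10 higher in every population, and DUSP1 was higher in parental cells and not shown to change elsewhere. The windows of DUSP3, DUSP7 and DUSP16 were also searched and are not shown. Those of DUSP7, which fell under drug, and of DUSP16 held none of the motifs searched for. They are RefSeq windows of GRCh38.p14 that run from 250 bases before to 50 bases after a gene's start, written 5′ to 3′ on the strand of the gene. The DUSP6 window is chr12:89352452-89352751 on the minus strand, the DUSP1 window is chr5:172771146-172771445 on the minus strand, and the DUSP10 window, the second of 2 listed starts, is chr1:221736851-221737150 on the minus strand. Capitals mark TGACGTCA, the cyclic AMP response element, and its shorter core, TGACG or the reverse complement CGTCA.
DUSP6: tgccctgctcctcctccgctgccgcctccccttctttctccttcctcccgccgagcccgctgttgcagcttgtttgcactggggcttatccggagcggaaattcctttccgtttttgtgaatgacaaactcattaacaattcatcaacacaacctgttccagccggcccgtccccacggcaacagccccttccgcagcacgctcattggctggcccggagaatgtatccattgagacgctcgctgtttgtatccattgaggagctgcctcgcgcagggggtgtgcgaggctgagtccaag
DUSP1: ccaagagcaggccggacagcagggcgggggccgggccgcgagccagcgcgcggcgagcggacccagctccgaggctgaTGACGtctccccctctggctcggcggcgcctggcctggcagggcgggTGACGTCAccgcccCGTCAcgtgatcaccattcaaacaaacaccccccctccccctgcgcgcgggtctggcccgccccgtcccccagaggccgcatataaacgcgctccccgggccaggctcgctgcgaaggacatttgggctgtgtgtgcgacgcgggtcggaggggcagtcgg
DUSP10: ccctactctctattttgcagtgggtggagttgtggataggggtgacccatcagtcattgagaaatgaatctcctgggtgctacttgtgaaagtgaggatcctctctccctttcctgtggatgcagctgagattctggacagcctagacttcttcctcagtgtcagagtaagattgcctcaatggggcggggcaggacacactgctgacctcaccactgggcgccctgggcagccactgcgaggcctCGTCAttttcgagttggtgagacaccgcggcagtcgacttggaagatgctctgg
The full element TGACGTCA was found in the DUSP1 window alone among the 7 windows of 6 members that were searched, from -125 to -118 when the first transcribed base is counted as 0. It was present in 1.85% of all 35116 promoter windows of the same length, on either strand. The shorter core TGACG, which overlaps the full one, occurred at 4 places in the DUSP1 window, and also in a DUSP3 window and in the DUSP10 window shown. The window of the other DUSP10 start, not shown, held no match to it. The shorter core was present in 24.6% of all windows. The ETS core CCGGAAGT (4.14% of all windows), the AP-1 element TGACTCA (4.95%), the forkhead element TGTTTAC (3.42%) and the serum response CArG core (1.29%) were found in none of the 7 windows on either strand. A match or its absence describes only these letters in these windows.

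Sequencing depth was 23.6 to 49.6 M reads per library, as read from the smallest step between values of a library. All 5 lung epithelial markers (EPCAM, KRT8, KRT18, KRT19 and CDH1) were present, with summed levels of 2939 to 7198 CPM (read counts scaled to the total of the library) in drug-treated libraries and 1949 to 3532 CPM in vehicle-treated libraries. Of 9 leukocyte, endothelial and fibroblast markers 5 had a row, with summed levels of 12.1 to 54.7 CPM in drug-treated libraries and 13.9 to 27.6 CPM in vehicle-treated libraries. PTPRC, CD3E, LYZ and PECAM1 were not analysed here. The part of these differences in the DUSP results was not tested. No pair of libraries held identical values.

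In vehicle-treated parental cells the ERK-linked members were the most abundant of the 8 per exonic length, apart from DUSP7. DUSP5 stood at 42.0 ± 8.99 CPM per kb, DUSP4 at 33.1 ± 1.301, DUSP6 at 23.0 ± 1.10 and DUSP3 at 8.98 ± 0.213 (SD, n = 2 each). DUSP10, DUSP16 and DUSP1 lay lower, at 3.40 ± 0.944, 2.89 ± 0.0630 and 2.33 ± 0.147 CPM per kb, and DUSP7 was lowest at 1.48 ± 0.0150 CPM per kb. The means of DUSP5 and DUSP4, and those of DUSP10 and DUSP16, differed by no more than the summed SDs of the neighbours.

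In parental cells given gefitinib this order changed in part. DUSP10 led at 11.96 ± 1.76 CPM per kb, with DUSP1 at 10.7 ± 1.39, DUSP5 at 10.2 ± 4.62 and DUSP3 at 8.40 ± 1.29 within the spread of their neighbours. DUSP16 followed at 2.74 ± 0.418 CPM per kb, DUSP4 at 1.40 ± 0.409 and DUSP7 at 0.429 ± 0.141. DUSP6, which had been the third most abundant member, was last at 0.0745 ± 0.00153 CPM per kb. In CPM per kb, the ERK-linked sum was below the stress-linked sum, DUSP1 included, in all 12 drug-treated libraries, at 0.240 to 0.705 times its value. It was above the stress-linked sum in all 10 vehicle-treated libraries, at 1.83 to 18.5 times its value. Drug-treated and vehicle-treated libraries thus did not overlap in this ratio. The order of the sums under drug depends on the division by length and on DUSP1. In plain CPM, or per kb without DUSP1, the ERK-linked sum was not the lower one in every drug-treated library.

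**Figure D1:**
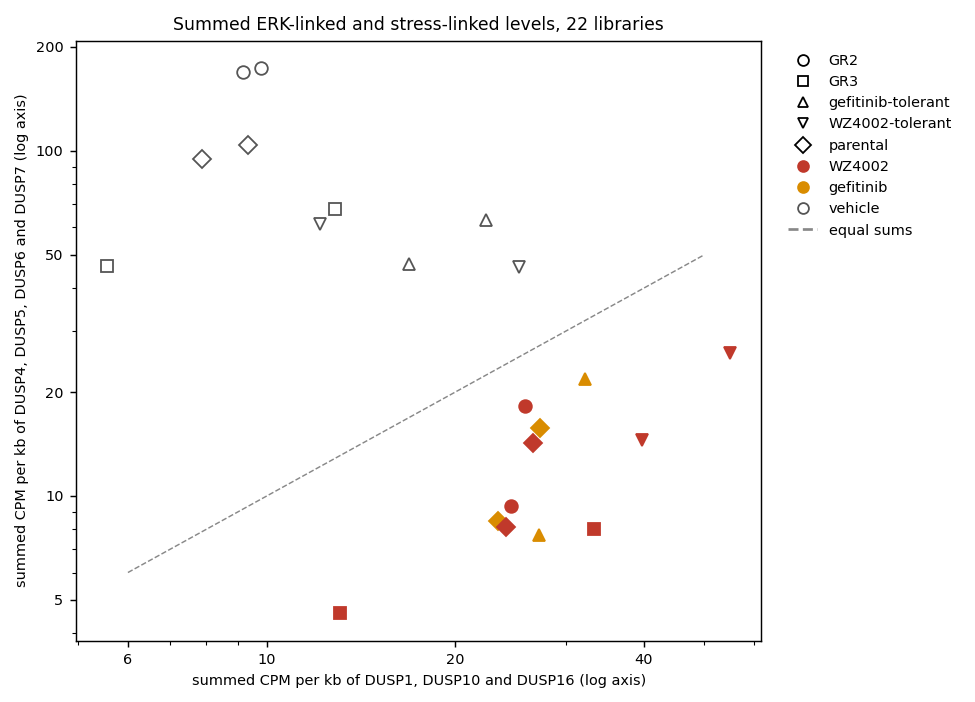
Each point is 1 of the 22 libraries, with the summed CPM per kb of DUSP1, DUSP10 and DUSP16 on the x axis and that of DUSP4, DUSP5, DUSP6 and DUSP7 on the y axis (both log axes); marker shape gives the population, filled points drug and open points vehicle, and the dashed line marks equal sums. All 12 drug-treated libraries lie below the line and all 10 vehicle-treated libraries above it.

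All 4 ERK-linked members fell under drug in GR2, GR3, gefitinib-tolerant and parental cells, and 3 of 4 fell in WZ4002-tolerant cells. DUSP10 rose in every population, DUSP1 rose in parental cells under either drug, and DUSP3 passed the threshold in none of the 6 comparisons of drug with vehicle. Changes are log2 differences of CPM plus a pseudocount of 1, fitted with limma over all genes, and a change was called at a Benjamini-Hochberg adjusted p under 0.05. Among all genes tested, 27.4% were called higher and 28.3% lower in GR2 cells, 12.1% and 9.87% in GR3 cells, 15.2% and 13.6% in gefitinib-tolerant cells, and 17% and 15.6% in WZ4002-tolerant cells. In parental cells 25.1% were higher and 22.3% lower under WZ4002, and 23.5% higher and 21.8% lower under gefitinib. Members called higher numbered 1 of 8 in GR2, GR3 and gefitinib-tolerant cells, and 2 of 8 in WZ4002-tolerant cells and in parental cells under either drug, shares near or below that background. Members called lower numbered 4 of 8 in each of those comparisons except in WZ4002-tolerant cells, where they numbered 3 of 8. Whether the libraries of 2 groups overlap is given for the members only. The share of all genes whose libraries stand apart in this way was not counted, so a lack of overlap only describes these libraries.

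**Figure D2:**
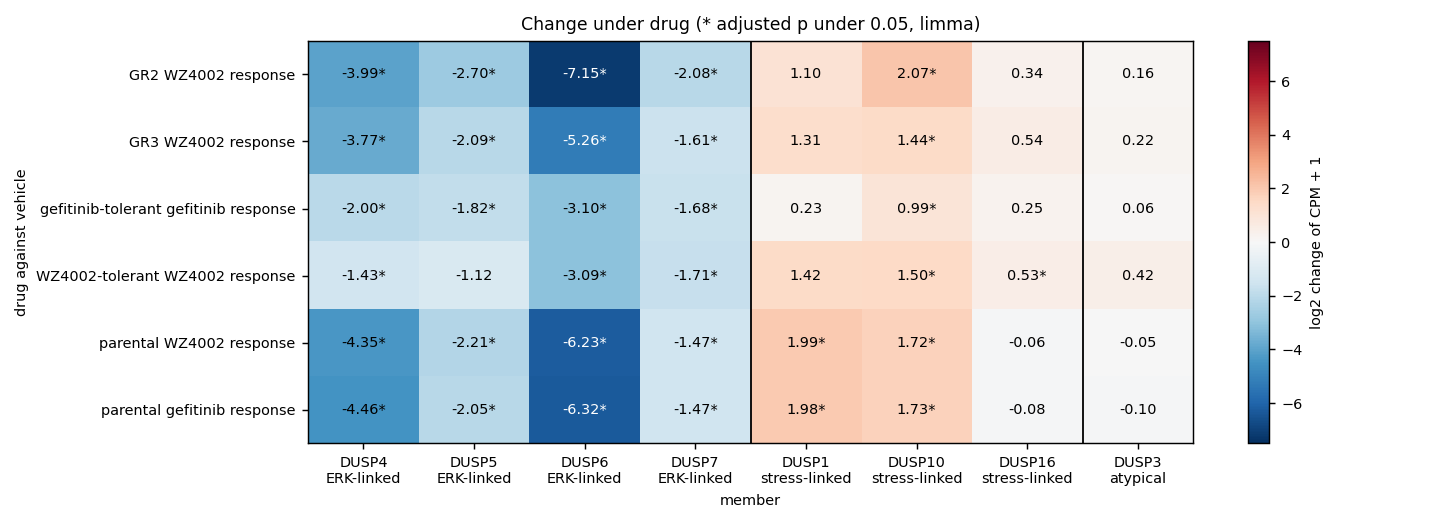
Log2 change of CPM plus 1 under drug against vehicle for 8 members (columns) in 6 comparisons (rows), with red for higher and blue for lower under drug and a star where the limma adjusted p is under 0.05. The 4 ERK-linked columns hold only negative values, from -7.15 to -1.12, and DUSP10 is starred in every row.

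DUSP6 (ENSG00000139318), the cytoplasmic ERK phosphatase and a classical feedback target, showed the deepest loss. Parental cells held 0.43 and 0.44 CPM under WZ4002 and 0.34 and 0.35 CPM under gefitinib, against 110 and 103 CPM under vehicle. GR2 cells held 0.60 and 1.29 CPM under WZ4002, against 276 and 267 CPM under vehicle. GR3 cells held 0.32 and 0.08 CPM under WZ4002, the second value being about 3 reads, against 35.2 and 56.8 CPM under vehicle. In these 3 populations every drug-treated library was therefore far below every vehicle-treated one, and the drug-treated mean was 0.348% of the vehicle mean in GR2 cells, 0.434% in GR3 cells, 0.408% in parental cells under WZ4002 and 0.323% under gefitinib. Gefitinib-tolerant cells held 4.18 and 1.11 CPM under gefitinib, against 28.1 and 26.7 CPM under vehicle. WZ4002-tolerant cells held 1.01 and 3.77 CPM under WZ4002, against 36.3 and 17.7 CPM under vehicle. The drug-treated tolerant cells thus kept more of their DUSP6, 9.66% of the vehicle mean under gefitinib and 8.85% under WZ4002, although their libraries also stood clear of the vehicle libraries.

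The log2 change of DUSP6 was -7.15 (SE 0.41, adjusted p = 7.29e-09) in GR2 cells and -5.26 (SE 0.41, adjusted p = 1.65e-06) in GR3 cells. In parental cells it was -6.23 under WZ4002 (SE 0.41, adjusted p = 1.53e-07) and -6.32 under gefitinib (SE 0.41, adjusted p = 1.23e-07). In gefitinib-tolerant cells it was -3.10 (SE 0.41, adjusted p = 0.000293) and in WZ4002-tolerant cells -3.09 (SE 0.41, adjusted p = 0.000223). Because many drug-treated levels lie below the pseudocount, these values understate the fold: at a pseudocount of 0.1 the change in parental cells under gefitinib was -7.91. The fall of DUSP6 stayed past the threshold in all 6 comparisons under each of the alternatives that were run.

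DUSP7 (ENSG00000164086), the other cytoplasmic ERK phosphatase, fell by a similar factor in most populations. Its levels were 1.67 and 1.82 CPM under WZ4002 against 10.9 and 10.3 CPM under vehicle in GR2 cells, and 3.90 and 4.94 CPM against 18.97 and 12.5 CPM in GR3 cells. They were 6.78 and 4.24 CPM under gefitinib against 25.0 and 15.1 CPM under vehicle in gefitinib-tolerant cells, and 4.40 and 6.32 CPM under WZ4002 against 19.9 and 19.3 CPM in WZ4002-tolerant cells. Parental cells held 2.05 and 2.76 CPM under WZ4002 and 1.86 and 2.99 CPM under gefitinib, against 8.31 and 8.43 CPM under vehicle. No drug-treated library of a population overlapped its vehicle libraries, and 27.3 to 28.97% of the vehicle mean remained outside GR2 cells, where 16.4% remained. The log2 changes ran from -2.08 in GR2 cells (SE 0.26, adjusted p = 8.36e-06) to -1.47 in parental cells under either drug (SE 0.26, adjusted p = 0.000345 for WZ4002), and all 6 held under every alternative that was run.

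DUSP5 (ENSG00000138166), the nuclear phosphatase specific for ERK, fell less evenly. GR2 cells held 16.6 and 38.3 CPM under WZ4002 against 173 and 167 CPM under vehicle, a log2 change of -2.70 (SE 0.56, adjusted p = 0.000787). GR3 cells held 4.96 and 13.4 CPM under WZ4002 against 26.2 and 56.3 CPM under vehicle, a log2 change of -2.09 (SE 0.56, adjusted p = 0.0150). Apart from the vehicle pair of GR2 cells, the 2 libraries of each of these groups differed by more than 2-fold, but the drug and vehicle groups did not overlap. Gefitinib-tolerant cells held 28.4 and 8.66 CPM under gefitinib against 70.7 and 48.6 CPM under vehicle, a log2 change of -1.82 (SE 0.56, adjusted p = 0.0243). WZ4002-tolerant cells held 19.1 and 34.9 CPM under WZ4002 against 64.4 and 51.0 CPM under vehicle, a log2 change of -1.12 that did not pass (SE 0.56, adjusted p = 0.135). Parental cells held 31.8 and 16.0 CPM under WZ4002 and 18.2 and 35.3 CPM under gefitinib, against 93.2 and 126 CPM under vehicle. The parental log2 changes were -2.21 (SE 0.56, adjusted p = 0.00462) under WZ4002 and -2.05 (SE 0.56, adjusted p = 0.00762) under gefitinib. The call was lost in parental cells under gefitinib without vehicle replicate 2 (adjusted p = 0.0525) or gefitinib replicate 1 (0.0856), and under WZ4002 without WZ4002 replicate 2 (0.0547). It was lost in GR3 cells without vehicle replicate 2 (adjusted p = 0.103) or WZ4002 replicate 1 (0.141), and in gefitinib-tolerant cells without vehicle replicate 1 (0.189) or gefitinib replicate 2, where the change was -1.02 (0.326). With only the GR3 libraries in the fit the GR3 call was lost too (adjusted p = 0.0781).

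DUSP4 (ENSG00000120875), the nuclear inducible phosphatase, was the ERK-linked member whose loss varied most between populations beside DUSP6. GR2 cells held 18.7 and 21.7 CPM under WZ4002, against 335 and 333 CPM under vehicle. GR3 cells held 13.9 and 14.3 CPM under WZ4002, against 183 and 231 CPM under vehicle. Parental cells held 11.4 and 10.3 CPM under WZ4002 and 8.04 and 12.2 CPM under gefitinib, against 247 and 233 CPM under vehicle. In these 3 populations 4.22 to 6.82% of the vehicle mean remained. Gefitinib-tolerant cells held 64.4 and 24.8 CPM under gefitinib, against 184 and 146 CPM under vehicle. WZ4002-tolerant cells held 45.4 and 77.6 CPM under WZ4002, against 185 and 141 CPM under vehicle. The tolerant cells thus kept 27.0% of the vehicle mean under gefitinib and 37.7% under WZ4002, with the drug-treated libraries again below every vehicle library.

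The log2 change of DUSP4 was -3.99 in GR2 cells (SE 0.32, adjusted p = 1.17e-07) and -3.77 in GR3 cells (SE 0.32, adjusted p = 3.64e-06). It was -4.35 in parental cells under WZ4002 (SE 0.32, adjusted p = 3.16e-07) and -4.46 under gefitinib (SE 0.32, adjusted p = 3.6e-07). In gefitinib-tolerant cells it was -2.0 (SE 0.32, adjusted p = 0.000804), and in WZ4002-tolerant cells -1.43 (SE 0.32, adjusted p = 0.00445). The last of these calls was lost without vehicle replicate 1 (adjusted p = 0.0646) or WZ4002 replicate 1 (adjusted p = 0.0631), and the other 5 held under every alternative that was run.

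**Figure D3:**
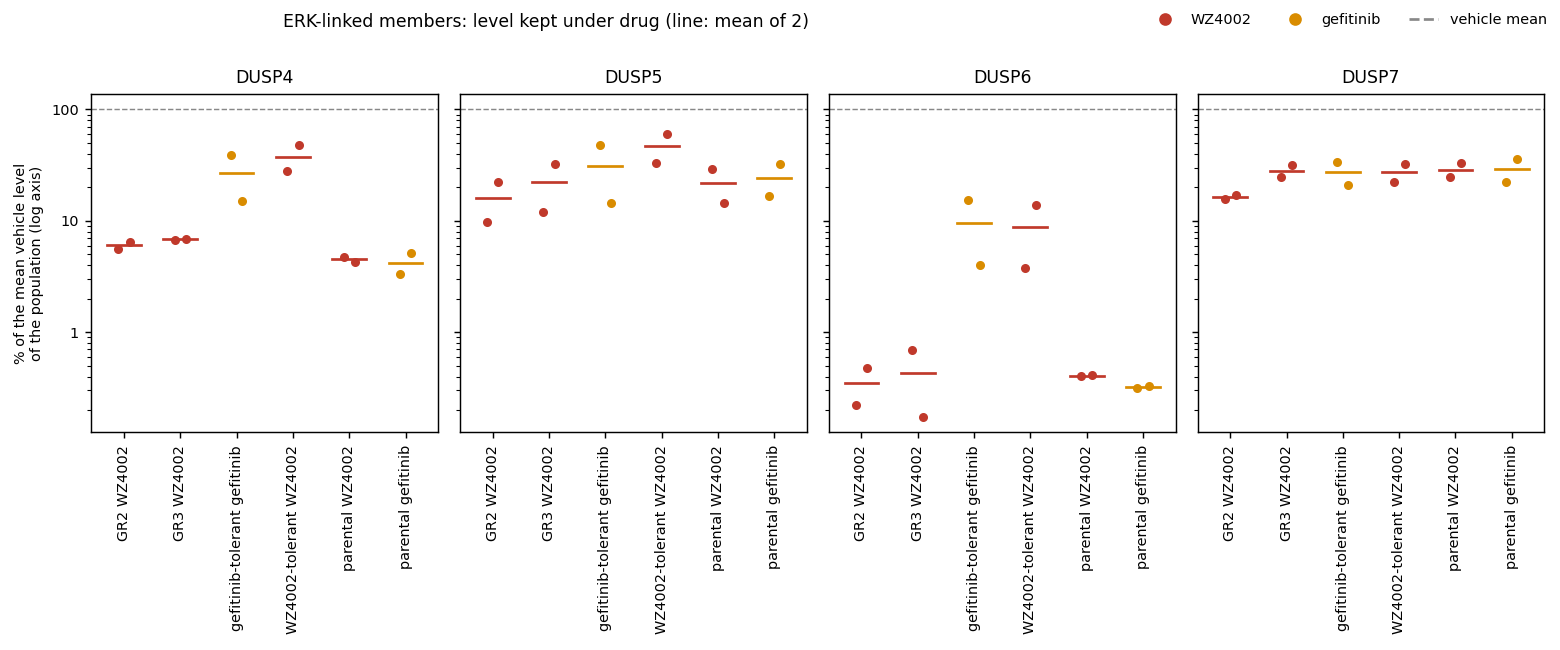
Level kept under drug, as a percentage of the mean vehicle level of the same population (log axis), for the 4 ERK-linked members; each point is 1 drug-treated library, each short line the mean of 2, and the dashed line the vehicle mean. DUSP4 and DUSP6 keep more in the tolerant populations (27.0% and 37.7% for DUSP4, 9.66% and 8.85% for DUSP6) than elsewhere, and DUSP7 keeps 16.4 to 28.97% in all.

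Among the stress-linked members, DUSP10 (ENSG00000143507), which prefers JNK and p38, gave the steadiest increase. GR2 cells held 36.6 and 34.5 CPM under WZ4002 against 8.05 and 7.35 CPM under vehicle, and GR3 cells 16.1 and 22.7 CPM against 4.90 and 8.28 CPM. Gefitinib-tolerant cells held 50.2 and 43.2 CPM under gefitinib against 24.6 and 21.3 CPM under vehicle, and WZ4002-tolerant cells 52.4 and 60.2 CPM under WZ4002 against 15.1 and 24.4 CPM. Parental cells held 36.5 and 32.5 CPM under WZ4002 and 31.2 and 38.5 CPM under gefitinib, against 7.95 and 11.8 CPM under vehicle. In every population both drug-treated libraries were above both vehicle libraries, by 2.04-fold on the means in gefitinib-tolerant cells and up to 4.62-fold in GR2 cells. The log2 change was 2.07 in GR2 cells (SE 0.24, adjusted p = 4.69e-06), 1.44 in GR3 cells (adjusted p = 0.000769), 0.99 in gefitinib-tolerant cells (adjusted p = 0.00788) and 1.5 in WZ4002-tolerant cells (adjusted p = 0.000659). It was 1.72 in parental cells under WZ4002 (SE 0.24, adjusted p = 5.7e-05) and 1.73 under gefitinib (adjusted p = 6.05e-05). With only the GR3 libraries in the fit the GR3 call was lost (adjusted p = 0.0573), and the other 5 calls held under every alternative that was run.

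DUSP1 (ENSG00000120129), the immediate early member, varied more between the libraries of a group. Parental cells held 23.8 and 19.7 CPM under WZ4002 and 19.6 and 23.5 CPM under gefitinib, against 4.49 and 4.91 CPM under vehicle. These groups stood apart, with log2 changes of 1.99 (SE 0.59, adjusted p = 0.0120) under WZ4002 and 1.98 (SE 0.59, adjusted p = 0.0129) under gefitinib. Both calls were lost without vehicle replicate 1 (adjusted p = 0.0618 for WZ4002 and 0.0664 for gefitinib), that of WZ4002 also without WZ4002 replicate 1 (0.0565), and that of gefitinib also without gefitinib replicate 2 (0.0692). GR2 cells held 16.0 and 22.1 CPM under WZ4002 against 8.29 and 8.12 CPM under vehicle, with no overlap and a log2 change of 1.10 that did not pass (adjusted p = 0.125). GR3 cells held 9.96 and 43.8 CPM under WZ4002 against 3.87 and 15.5 CPM under vehicle, groups that overlapped (log2 change 1.31, adjusted p = 0.123). Gefitinib-tolerant cells held 24.8 and 19.5 CPM under gefitinib against 23.6 and 14.7 CPM under vehicle, also overlapping (log2 change 0.23, adjusted p = 0.801). WZ4002-tolerant cells held 37.1 and 63.9 CPM under WZ4002 against 10.3 and 29.7 CPM under vehicle, with no overlap and a log2 change of 1.42 that did not pass (adjusted p = 0.0773).

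DUSP16 (ENSG00000111266), the third stress-linked member, ranged from 13.4 to 23.3 CPM over the drug-treated libraries and from 10.9 to 16.8 CPM over the vehicle-treated ones. In WZ4002-tolerant cells it held 19.5 and 15.5 CPM under WZ4002 against 10.9 and 12.7 CPM under vehicle, with a log2 change of 0.53 (SE 0.20, adjusted p = 0.0499). That call lay at the threshold and was lost under 9 of 10 alternatives, with adjusted p up to 0.285. In the other 5 comparisons its log2 change lay between -0.08 and 0.54 and did not pass. Both drug-treated libraries lay above both vehicle libraries in GR2, GR3 and both tolerant populations, and the groups overlapped in parental cells. DUSP3 (ENSG00000108861), the atypical member, ranged from 37.1 to 83.4 CPM in drug-treated libraries and from 37.6 to 64.7 CPM in vehicle-treated libraries. Its log2 changes lay between -0.10 and 0.42, and none passed. Its drug-treated and vehicle libraries overlapped except in WZ4002-tolerant cells, where the drug-treated ones were higher.

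**Figure D4:**
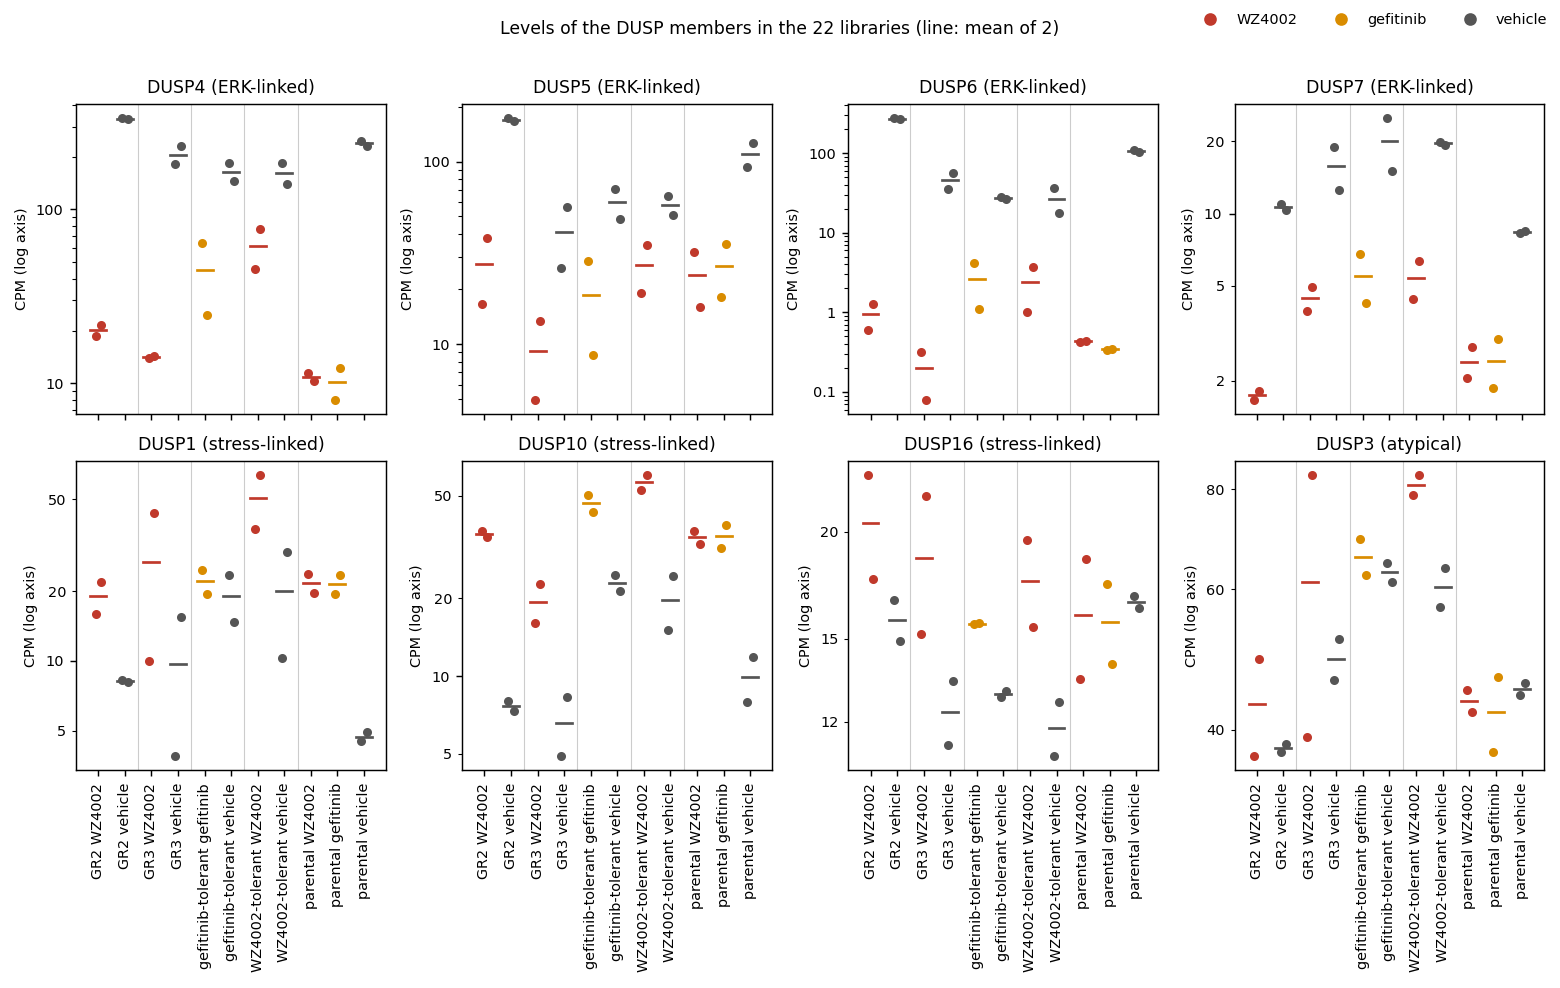
CPM (log axis) of the 8 members in the 22 libraries; each point is 1 library, each short line the mean of 2, and colour gives WZ4002, gefitinib or vehicle. In every population the drug-treated points of DUSP4, DUSP5, DUSP6 and DUSP7 lie below the vehicle points and those of DUSP10 lie above them. Those of DUSP16 lie above the vehicle points in GR2, GR3 and both tolerant populations, by less than those of DUSP10, and overlap them in parental cells. Those of DUSP3 lie above them in WZ4002-tolerant cells and overlap them elsewhere.

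The median log2 change of the ERK-linked members ran from -3.34 in GR2 cells to -1.57 in WZ4002-tolerant cells, while that of all genes tested lay between 0.01 and 0.04 in the 6 comparisons. The median of the stress-linked members ran from 0.25 in gefitinib-tolerant cells to 1.73 in parental cells under gefitinib. Since DUSP1 is also induced through ERK, the stress-linked median was recomputed without it, over DUSP10 and DUSP16 only. It was then 0.62 to 1.21, so every stress-linked median was positive and every ERK-linked one negative with either definition. With only 2 genes left, this median is their midpoint, and DUSP10 had the larger change in every comparison. DUSP16 changed by -0.08 in parental cells under gefitinib and by -0.06 under WZ4002, so the positive median there came from DUSP10 alone.

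In parental cells WZ4002 could be set against gefitinib at a matched dose and time. None of the 8 members differed between WZ4002 and gefitinib in the limma test, and 0% of all genes tested did, with 525 genes at an unadjusted p under 0.05 and 343 genes called when parental WZ4002 replicate 1 was left out. The log2 difference of WZ4002 against gefitinib was 0.12 for DUSP4 (95% interval -0.57 to 0.80), 0.09 for DUSP6 (-0.79 to 0.97) and 0.00 for DUSP7 (-0.55 to 0.55). It was -0.16 for DUSP5 (95% interval -1.35 to 1.03), 0.01 for DUSP1 (-1.24 to 1.27) and -0.01 for DUSP10 (-0.53 to 0.51). DUSP3 differed by 0.05 (95% interval -0.44 to 0.55) and DUSP16 by 0.02 (-0.40 to 0.43). Differences of about 2-fold in either direction are thus within the intervals of DUSP5 and DUSP1. DUSP6 stood at 0.43 and 0.44 CPM under WZ4002 and at 0.34 and 0.35 CPM under gefitinib. These levels lie below the pseudocount of 1, so the interval of DUSP6 understates the fold of CPM that it allows.

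The next question was whether the populations differed before drug. Under vehicle, DUSP6 was the member whose level varied most, from 271 ± 6.60 CPM in GR2 cells through 46.0 ± 15.3 CPM in GR3, 27.4 ± 0.962 CPM in gefitinib-tolerant and 27.0 ± 13.2 CPM in WZ4002-tolerant cells, against 107 ± 5.11 CPM in parental cells (SD, n = 2 each). The levels of both tolerant populations, and those of GR3 and WZ4002-tolerant cells, differed by no more than their summed SDs. In both tolerant populations DUSP6 was lower than in parental cells, with log2 differences of -1.92 (SE 0.41, adjusted p = 0.00457) in gefitinib-tolerant and -2.03 (SE 0.41, adjusted p = 0.00342) in WZ4002-tolerant cells. The second of these was lost without WZ4002-tolerant vehicle replicate 2 (-1.53, adjusted p = 0.0618).

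DUSP7 and DUSP10 went the other way in the tolerant cells. DUSP7 was higher than in parental cells by 1.13 on the log2 scale (SE 0.26, adjusted p = 0.00691) in gefitinib-tolerant and by 1.14 (SE 0.26, adjusted p = 0.00674) in WZ4002-tolerant cells. DUSP10 was higher by 1.16 (SE 0.24, adjusted p = 0.00401) in gefitinib-tolerant and by 0.91 (SE 0.24, adjusted p = 0.0165) in WZ4002-tolerant cells. DUSP1 was higher by 1.79 in gefitinib-tolerant cells (SE 0.59, adjusted p = 0.0453), and in WZ4002-tolerant cells the difference of 1.71 did not pass (SE 0.59, adjusted p = 0.0561). In all, 4 of 8 members were called in gefitinib-tolerant cells against 19% of all genes, and 3 of 8 in WZ4002-tolerant cells against 18.4%. DUSP1 lost its call when any 1 of the 4 libraries was left out, with adjusted p from 0.0718 to 0.265. DUSP10 lost its call in gefitinib-tolerant cells without parental vehicle replicate 1 (adjusted p = 0.0625), and in WZ4002-tolerant cells without that library (0.168) or without WZ4002-tolerant vehicle replicate 2 (0.194), and with only the compared libraries in the fit (0.0523). DUSP7 lost its call in gefitinib-tolerant cells without gefitinib-tolerant vehicle replicate 1 (0.78, adjusted p = 0.12).

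In the resistant derivatives under vehicle, DUSP6 was higher in GR2 than in parental cells (log2 difference 1.34, SE 0.41, adjusted p = 0.0372) and lower in GR3 than in parental cells (-1.23, SE 0.41, adjusted p = 0.0451). DUSP7 was higher in GR3 than in parental cells (0.81, SE 0.26, adjusted p = 0.0368). These are 1 of 8 members in GR2 cells, against 16.7% of all genes, and 2 of 8 in GR3 cells, against 20.8%, which is close to the background. The GR2 call of DUSP6 was lost without any 1 of its 4 libraries (adjusted p = 0.114 to 0.174). Both GR2 vehicle libraries stand in the third of 3 runs of columns in the deposited table, and with a term for the run, an alternative chosen after the table was seen, the difference was 0.81 (adjusted p = 0.396). The GR3 call of DUSP6 was lost without either parental library (0.169 and 0.128) or GR3 replicate 1 (0.226), and so was that of DUSP7 (0.136, 0.12 and 0.236).

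Set directly against GR2, GR3 cells had less DUSP6 (log2 difference -2.57, SE 0.41, adjusted p = 0.00022) and less DUSP5 (-2.11, SE 0.56, adjusted p = 0.00875). DUSP5 stood at 26.2 and 56.3 CPM in GR3 cells against 173 and 167 CPM in GR2 cells, with no overlap. These were 2 of 8 members, against 33.1% of all genes tested. The DUSP6 difference held under every alternative that was run, and that of DUSP5 was lost without GR2 vehicle replicate 1 (adjusted p = 0.0523), without GR3 vehicle replicate 1 (0.0872) and with the column-run term (0.0847).

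Levels reached under drug were then compared with those of parental cells under the same drug. In both tolerant populations 3 of the 4 ERK-linked members were higher under drug. In gefitinib-tolerant cells under gefitinib, DUSP4 was higher by 1.91 (SE 0.32, adjusted p = 0.000472), DUSP6 by 1.3 (SE 0.41, adjusted p = 0.0258) and DUSP7 by 0.92 (SE 0.26, adjusted p = 0.0137). In WZ4002-tolerant cells under WZ4002, DUSP4 was higher by 2.35 (SE 0.32, adjusted p = 7.68e-05), DUSP6 by 1.11 (SE 0.41, adjusted p = 0.0465) and DUSP7 by 0.89 (SE 0.26, adjusted p = 0.0142). DUSP5 did not pass in either, at -0.65 and 0.18. DUSP7 was also higher in both under vehicle, and the share of its vehicle mean kept under drug was 27.5% in gefitinib-tolerant and 27.3% in WZ4002-tolerant cells, against 28.97% in parental cells under gefitinib and 28.7% under WZ4002. DUSP3 was higher as well, by 0.64 (SE 0.23, adjusted p = 0.0460) in gefitinib-tolerant and by 0.88 (SE 0.23, adjusted p = 0.00806) in WZ4002-tolerant cells, and DUSP10 by 0.69 in the WZ4002-tolerant cells (SE 0.24, adjusted p = 0.0364). The called members numbered 4 of 8 in gefitinib-tolerant cells, against 31.9% of all genes, and 5 of 8 in WZ4002-tolerant cells, against 36.6%.

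Of these calls only the DUSP4 differences held under every alternative that was run. Those of DUSP6 were lost without either parental library (adjusted p = 0.0931 to 0.122) and moved most with 1 tolerant library each: without gefitinib-tolerant gefitinib replicate 1 the difference was 0.65 (adjusted p = 0.343), and without WZ4002-tolerant WZ4002 replicate 2 it was 0.49 (adjusted p = 0.475). DUSP7 lost its call in gefitinib-tolerant cells without parental gefitinib replicate 1 (0.142) or gefitinib-tolerant gefitinib replicate 1 (0.172), and in WZ4002-tolerant cells without parental WZ4002 replicate 1 (0.0917) or WZ4002-tolerant WZ4002 replicate 2 (0.15). DUSP3 in gefitinib-tolerant cells and DUSP10 in WZ4002-tolerant cells lost their calls without any 1 of their 4 libraries (adjusted p up to 0.254 and 0.193), and DUSP3 in WZ4002-tolerant cells without WZ4002-tolerant WZ4002 replicate 2 (0.059). GR3 cells under WZ4002 had less DUSP10 than parental cells under WZ4002 (-0.82, SE 0.24, adjusted p = 0.0191), which was 1 of 8 members against 29.7% of all genes and was lost without GR3 WZ4002 replicate 1 (-0.58, adjusted p = 0.177), without parental WZ4002 replicate 1 (0.0938) and with only the compared libraries in the fit (0.0627). In GR2 cells under WZ4002 none of 8 members differed from parental cells in the limma test, against 5.66% of all genes.

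Whether the drug responses themselves differed between populations was tested as a difference of log2 changes. The gefitinib response of gefitinib-tolerant cells was shallower than that of parental cells by 2.46 for DUSP4 (95% interval 1.48 to 3.43, adjusted p = 0.0110) and by 3.22 for DUSP6 (95% interval 1.98 to 4.46, adjusted p = 0.0101). The WZ4002 response of WZ4002-tolerant cells was shallower by 2.92 for DUSP4 (95% interval 1.94 to 3.89, adjusted p = 0.00294) and by 3.14 for DUSP6 (95% interval 1.89 to 4.38, adjusted p = 0.00835). DUSP4 and DUSP6 thus made up 2 of 8 members called in each comparison, against 2% of all genes in the first and 4.49% in the second. For DUSP7 the differences were -0.21 (95% interval -0.99 to 0.57) and -0.25 (-1.03 to 0.53), and did not pass. DUSP4 and DUSP7 were not tested against each other.

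The DUSP4 difference in WZ4002-tolerant cells held under every alternative that was run. That of DUSP6 was lost without WZ4002-tolerant WZ4002 replicate 2 (2.51, adjusted p = 0.0501). In gefitinib-tolerant cells DUSP4 lost its call without parental vehicle replicate 1 (adjusted p = 0.0558), parental gefitinib replicate 1 (0.0683) or gefitinib-tolerant vehicle replicate 2 (0.0552), and DUSP6 lost its call without parental vehicle replicate 1 (0.0510) or gefitinib-tolerant gefitinib replicate 1 (2.57, adjusted p = 0.0506). At a pseudocount of 0.1 the DUSP6 differences were larger, at 4.31 and 4.02.

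The WZ4002 responses of GR2 and GR3 cells were not shown to differ from that of parental cells for any of the 8 members in the limma test, against 6.79% of all genes for GR2 and 1.29% for GR3. For DUSP6 the differences were -0.92 (95% interval -2.17 to 0.32) in GR2 and 0.97 (-0.28 to 2.21) in GR3 cells. Between GR3 and GR2 the DUSP6 response differed by 1.89 (95% interval 0.65 to 3.14, adjusted p = 0.0426), the 1 of 8 members called against 13.6% of all genes. This call was lost under 10 of 14 alternatives, and at a pseudocount of 0.1 the difference was 0.75 (adjusted p = 0.587). The share of DUSP6 kept under WZ4002 was 0.434% in GR3 and 0.348% in GR2 cells.

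**Figure D5:**
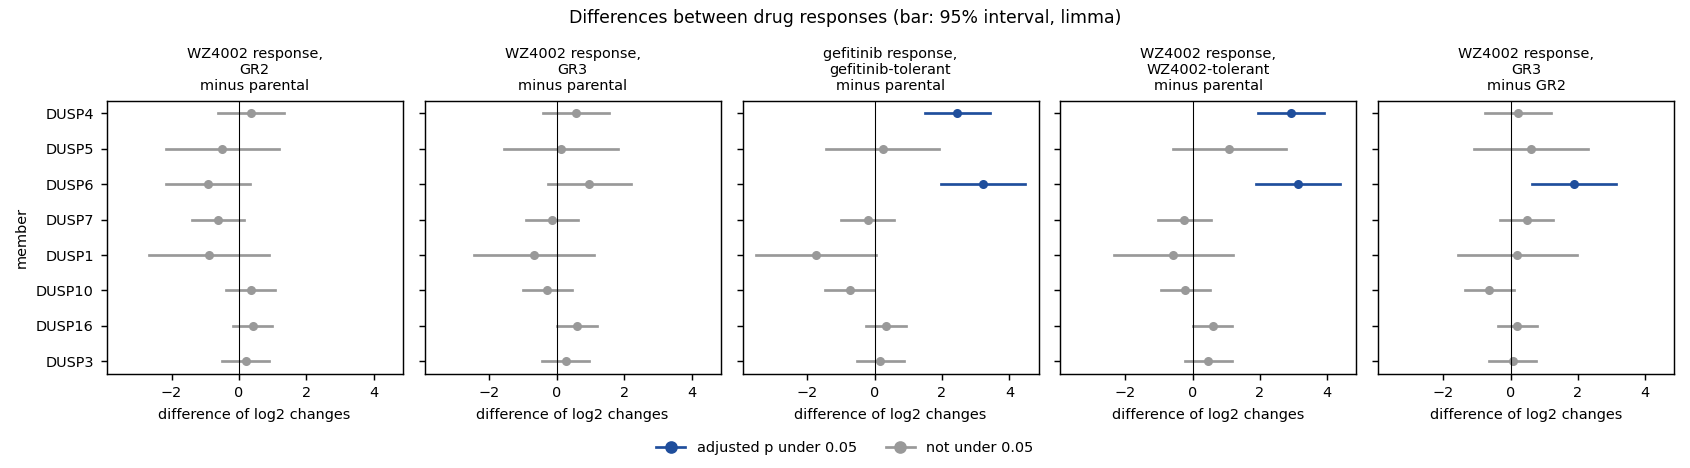
Differences between drug responses, in units of log2 change, for the 8 members (rows) in 5 comparisons of populations (panels); points are limma estimates, bars 95% intervals, and blue marks an adjusted p under 0.05. DUSP4 and DUSP6 lie to the right of 0 in both tolerant populations, between 2.46 and 3.22, and no other member is blue there.

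The other genes of these pathways gave a frame for the DUSP changes. Of 12 other ERK output genes, which include the feedback inhibitors SPRY2, SPRY4, SPRED1 and SPRED2, 12 fell in parental cells under either drug, 11 in GR2 and gefitinib-tolerant cells, 10 in GR3 cells and 8 in WZ4002-tolerant cells, and none rose. ETV5, an ETS family transcription factor, changed by -5.73 in GR2, -5.79 in GR3, -3.14 in gefitinib-tolerant and -2.38 in WZ4002-tolerant cells, against vehicle in each, and its relative ETV4 by -4.49, -4.72, -2.51 and -2.24. The list median was -1.88 in gefitinib-tolerant and -1.44 in WZ4002-tolerant cells, and -3.17 in parental cells under WZ4002. Of 15 genes of the ERK cascade itself, 2 to 6 rose and 0 to 4 fell across the 6 comparisons, with list medians between -0.03 and 0.13. In these comparisons 12.1 to 27.4% of all genes were called higher and 9.87 to 28.3% lower. In GR2 cells 6 rose and 2 fell, against 27.4% and 28.3% of all genes. In the gefitinib-tolerant and the WZ4002-tolerant cells 2 rose and 4 fell, where 13.6% and 15.6% of all genes were lower. Counts this small were not tested and give no result about the list. SOS2, an exchange factor that activates RAS, rose in all 6, by 0.73 to 1.22. MAPK3, which encodes ERK1, rose in 5 of 6, by 1.16 in GR2 cells, and in parental cells under WZ4002 its change of 0.35 did not pass. Of 16 genes of the JNK and p38 cascades, 0 to 5 rose and 2 to 5 fell, beside the same shares of all genes. In GR3 cells 1 rose and 4 fell, against 12.1% and 9.87% of all genes. In WZ4002-tolerant cells 0 rose and 3 fell, against 17% and 15.6%. These counts were not tested either. MAPK13, a p38 kinase, fell in all 6, from -1.74 in parental cells under gefitinib to -1.19 in both tolerant populations. MAPK10, a JNK kinase, rose in GR2 cells (2.15) and in parental cells under WZ4002 (1.73) and gefitinib (1.69), and did not pass elsewhere (0.09 to 0.50).

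Among 16 other dual-specificity phosphatases 12 were tested, and 1 to 6 of them rose and 1 or 2 fell in each comparison, against the same 12.1 to 27.4% and 9.87 to 28.3% of all genes. The count of 6 was in parental cells under WZ4002, where 25.1% of all genes were higher. In parental cells under gefitinib and in WZ4002-tolerant cells 5 rose, where 23.5% and 17% of all genes were higher. In GR3 cells 1 rose, where 12.1% were higher. The counts that fell were near or below the background, and none of these counts was tested. DUSP2, a nuclear inducible phosphatase, fell in 5 of 6 comparisons, by 1.55 on the log2 scale in parental cells under WZ4002 (SE 0.29, adjusted p = 0.000517). In GR3 cells its change of -0.79 did not pass (adjusted p = 0.0621). DUSP9, a cytoplasmic ERK phosphatase related to DUSP6 and DUSP7, moved the other way. It rose in gefitinib-tolerant cells (2.31, SE 0.41, adjusted p = 0.00122), GR3 cells (1.95), WZ4002-tolerant cells (1.64) and GR2 cells (1.05), and in parental cells its changes of 0.75 and 0.60 did not pass.

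Likeness of pattern was measured as Pearson's r between the 11 group means of log2(CPM + 1), as a description over groups that share the drug contrast. Among 11628 genes, those most like DUSP4 were ETV5 (r = 0.99), SPRED2 (0.99) and ETV4 (0.99). Those most like DUSP6 were TRIM27, NPAS2 and SLCO4A1 (0.98 each), and those most like DUSP7 were UTP20, PPP5C and MAK16 (0.99 each). DUSP5 was most like HDGF (0.98), DUSP10 most like GPRC5B (0.98), DUSP1 most like PLK2 (0.95), DUSP3 most like TUBA1A (0.98) and DUSP16 most like RAB1B (0.92). Among the members, DUSP4 and DUSP6 had an r of 0.96, DUSP5 and DUSP6 of 0.91 and DUSP1 and DUSP10 of 0.89. DUSP6 and DUSP10 ran in opposite directions, with an r of -0.80. DUSP3 was close to unrelated to DUSP4 (0.06).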

How the data were processed

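Expression was measured by RNA-seq in 22 PC9 libraries of 11 labelled groups. The authors deposited CPM values, read counts scaled to the library total, per Ensembl gene in 1 table, and STAR, HTSeq and hg19 are named, per the submitters' processing notes, without versions. The lower values of each library fall on steps of 1 read (100% of those checked, against 24.1 to 50.6% by chance), which gave the depth. The depth was fitted to these same values, so that share is no independent check. The listed genes take 54.6 to 64.2% of all CPM. The deposited values hold no zero, and the smallest is 0.02 CPM, so every listed gene had reads in every library. Shares of all genes therefore leave out any gene without reads in some library. Genes with at least 1 CPM in at least 2 libraries were kept, which left out 1680. Group means of log2(CPM + 1) were fitted over all 22 libraries with limma 3.58.1 in R 4.3.3 (eBayes with trend, 11 residual degrees of freedom), and p-values were adjusted by Benjamini-Hochberg within each of 21 contrasts at 0.05. The fit was tested on simulated data. Levels per kb use summed exonic lengths from a GENCODE annotation of GRCh38, matched by gene identifier.

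The members and lists were chosen with earlier results of these data known. Named genes are the members, the 3 genes most like each in pattern (mean of at least 5 CPM in 1 group) and the 2 genes of each list with the lowest p over the 6 drug responses. The deviations of same-numbered libraries correlated at over 0.1 in 20 of 55 pairs of groups (r from -0.46 to 0.63, median 0.05). These correlations do not decide whether libraries are paired. The labels name no shared batch, and the fit reported did not pair libraries by number. Same-numbered libraries do not always stand in the same run of columns. The fit was repeated with each library left out, with a replicate block, with only the libraries of a contrast, with median-of-ratios scaling, unfiltered, with 0.1 as the pseudocount, and with a column-run term added after the table was seen.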

Additional observations from a re-analysis of the deposited data

Results flagged for a closer look

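The drug responses of 2 members differed between populations in the limma test of the difference itself. The DUSP4 response to gefitinib was shallower in gefitinib-tolerant than in parental cells by 2.46 on the log2 scale (adjusted p = 0.011), and the DUSP6 response by 3.22 (adjusted p = 0.0101). The DUSP4 response to WZ4002 was shallower in WZ4002-tolerant than in parental cells by 2.92 (adjusted p = 0.00294), and the DUSP6 response by 3.14 (adjusted p = 0.00835). The DUSP6 response to WZ4002 was shallower in GR3 than in GR2 cells by 1.89 (adjusted p = 0.0426), a call that was lost under 10 of 14 alternatives. At a pseudocount of 0.1 that difference was 0.75 (adjusted p = 0.587), and the share of DUSP6 kept was 0.434% in GR3 and 0.348% in GR2 cells. With 2 libraries in each group, no group was large enough to be searched for a single library far from the others.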

How the results depend on the processing

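No called change of a member reversed its sign under the alternatives run, and 23 of 32 calls of drug against vehicle, 3 of 12 under vehicle, 2 of 10 under drug and 1 of 5 differences between responses held under all of them. A pseudocount of 0.1 gave 0 members called for GR2 against parental cells under vehicle (1 in the fit reported), 1 for GR3 against parental cells under vehicle (2), 2 for GR3 against parental cells under WZ4002 (1) and 0 for the response of GR3 minus GR2 (1). No filter gave 0, 0 and 0 for the first, second and last of these. The column-run term gave 0 for GR2 against parental cells and 1 for GR3 against GR2 cells (2) under vehicle, 2 for GR3 against parental cells under WZ4002 and 0 for GR3 minus GR2. Only the compared libraries gave 3 for the GR3 response (5), and under vehicle 4 for GR2, 1 for GR3, 7 for gefitinib-tolerant (4) and 5 for WZ4002-tolerant cells (3), each against parental cells, and 0 for GR3 against parental cells under WZ4002. Leaving out 1 library gave 3 to 5 members for the WZ4002-tolerant response, and under vehicle 0 to 0 for GR2, 0 to 3 for GR3, 2 to 3 for gefitinib-tolerant and 1 to 4 for WZ4002-tolerant against parental cells, and 1 to 2 for GR3 against GR2. It gave 0 to 2 for GR3, 1 to 3 for gefitinib-tolerant and 1 to 4 for WZ4002-tolerant against parental cells under drug, and 0 to 2, 1 to 2 and 0 to 1 for the differences of gefitinib-tolerant minus parental, WZ4002-tolerant minus parental and GR3 minus GR2. For WZ4002 against gefitinib, where nothing was called, the column-run term gave -0.43 for DUSP1, -0.0627 for DUSP3, -0.12 for DUSP6, -0.12 for DUSP7 and -0.0278 for DUSP16, and leaving out 1 library gave ranges of -0.12 to 0.14 for DUSP1, -0.10 to 0.21 for DUSP3, -0.16 to 0.39 for DUSP4, -0.63 to 0.31 for DUSP5, -0.24 to 0.24 for DUSP7, -0.16 to 0.14 for DUSP10 and -0.20 to 0.24 for DUSP16. Uncalled drug responses that changed sign with 1 library left out ranged, in parental cells, from -0.255 to 0.0512 for DUSP3 and -0.227 to 0.0664 for DUSP16 under gefitinib and from -0.28 to 0.16 for DUSP16 under WZ4002, and elsewhere from -0.0349 to 0.36 for DUSP3 in GR2, -0.31 to 0.76 for DUSP3 in GR3, and -0.0122 to 0.14 for DUSP3 and -0.10 to 0.55 for DUSP1 in gefitinib-tolerant cells. With the replicate number as a block, 96 of 100 member changes kept their side of the threshold, DUSP1 in WZ4002-tolerant cells passed for the drug response (1.42, adjusted p = 0.0482) and against parental cells under vehicle (adjusted p = 0.0327), and DUSP16 (0.0529) and DUSP6 against parental cells under WZ4002 (0.0506) no longer passed there. Over all genes, only the compared libraries gave 693 calls for the GR3 response (3406 in the fit reported), under vehicle 4585 for GR2 (2591) and 1046 for GR3 (3228) against parental cells, and under WZ4002 0 for GR2 (877), 1724 for GR3 (4596) and 2785 for WZ4002-tolerant cells (5675). For differences from the parental response the same setting gave 9 for GR3 (200), 218 for WZ4002-tolerant (696) and 690 for gefitinib-tolerant cells (310). The column-run term gave 1449 for GR2 against parental cells under vehicle, and for the differences from the parental response 338 for GR2 (1051), 1479 for WZ4002-tolerant and 873 for gefitinib-tolerant cells. The difference of GR3 from the parental response had 124 calls at a pseudocount of 0.1 and 344 with the replicate block. Leaving out 1 library gave as few as 976 calls for the gefitinib-tolerant response (4446), 1401 for the WZ4002-tolerant response (5049) and 90 for the difference of gefitinib-tolerant from parental cells, and WZ4002 against gefitinib had 343 without parental WZ4002 replicate 1 (0). The cause was not tested. A planned count test was not run, since the table holds CPM.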

Other observations

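The libraries of a pair differed in the same direction for some members when ordered by their run of columns. Among 6 pairs from parental, GR3 and WZ4002-treated GR2 cells whose libraries stand in different runs, the library of the second run was higher for DUSP5 in 6 of 6, by 1.36-fold to 2.71-fold. It was also higher in 6 of 6 for DUSP1, by 1.09-fold to 4.40-fold, and for DUSP3, by 1.03-fold to 2.13-fold. In the 4 pairs from tolerant cells it was the other library that was higher for DUSP4, DUSP5, DUSP6 and DUSP7 in 4 of 4. There DUSP5 differed by 1.26-fold to 3.28-fold and DUSP4 by 1.27-fold to 2.59-fold. A run of columns is only an order in the table's header, and its part in these differences was not tested.

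DUSP6 made up 0.216 to 4.13% of the summed CPM per kb of the ERK-linked members in drug-treated libraries, against 8.28 to 34.3% in vehicle-treated libraries.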
